A study of Mus musculus with 4 samples.

Results

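Nr4a1, Nr4a2 and Nr4a3, the nuclear receptor family 4A, were followed over 4 coronal brain sections of mice at postnatal day 21 (P21). The family was taken by gene symbol and makes up 3 of the 19465 features measured. It was selected on the difference between the diet groups in these same sections, so its values in HF against MF are given as a description, with no p-value and no call. Its levels over the areas of the section had no part in that choice and were tested.

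The sections came from wild-type male C57BL/6J offspring. Their mothers ate a diet with folic acid (FA) at 2 mg/kg (MF, control, 2 sections) or 20 mg/kg (HF, excessive FA, 2 sections). The diets ran from before mating through pregnancy and lactation, and whether pups also ate them before P21 is not stated. Litters are not given in the sources used here. Errors and calls of HF against MF come from these 4 sections alone. Those of areas, and their p-values, come from differences between areas in the same 4 sections. In both, edgeR draws the spread of each feature toward that of all features tested. A small p-value therefore rests partly on other features and does not measure agreement between animals. The assay was Visium-FFPE, in which probe pairs bind transcripts in fixed tissue and are counted as unique molecular identifiers (UMIs) in spots on an array, each spot covering several cells.

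NR4A proteins are orphan nuclear receptors: their ligand-binding pocket is filled by bulky side chains, and their activity follows mainly from how much protein is made. All of the family are immediate early genes, transcribed within minutes when a neuron is stimulated, through cAMP and calcium signals that reach CREB. Nr4a1 (also Nur77) limits spine density in excitatory neurons, Nr4a2 (Nurr1) specifies and maintains midbrain dopamine neurons, and Nr4a3 (Nor1) is the third receptor, with a DNA-binding domain much like those of the others. In the hippocampus the family takes part in consolidating long-term memory.

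In GENCODE vM21 on GRCm38, Nr4a1 (ENSMUSG00000023034) lies on chromosome 15 from 101254269 to 101274795 on the plus strand. Nr4a2 (ENSMUSG00000026826) lies on chromosome 2 from 57106830 to 57124003 on the minus strand. Nr4a3 (ENSMUSG00000028341) lies on chromosome 4 from 48045153 to 48086447 on the plus strand. The 3 genes are on different chromosomes, and what their promoters share is shown by the bases before the RefSeq start on GRCm38.p6, with each copy of TGACG or its other strand CGTCA, the core of the cAMP response element (CRE) that CREB binds, in capitals. The Nr4a1 window, chr15:101266596-101266845, is inside the annotated gene but holds no exon base. The Nr4a2 window is chr2:57124004-57124253. For Nr4a3 only the 98 bases of chr4:48045055-48045152 that precede every annotated exon are shown.
Nr4a1: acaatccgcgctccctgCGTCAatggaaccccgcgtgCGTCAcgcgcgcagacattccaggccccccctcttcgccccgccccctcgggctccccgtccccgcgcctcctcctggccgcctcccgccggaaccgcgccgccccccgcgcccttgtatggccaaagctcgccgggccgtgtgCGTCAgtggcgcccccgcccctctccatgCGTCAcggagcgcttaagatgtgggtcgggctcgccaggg
Nr4a2: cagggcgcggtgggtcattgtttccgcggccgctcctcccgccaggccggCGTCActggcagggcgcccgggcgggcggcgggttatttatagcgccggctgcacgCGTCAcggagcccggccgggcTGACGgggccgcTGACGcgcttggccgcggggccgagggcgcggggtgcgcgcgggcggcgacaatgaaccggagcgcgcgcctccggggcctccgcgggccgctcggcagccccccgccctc
Nr4a3: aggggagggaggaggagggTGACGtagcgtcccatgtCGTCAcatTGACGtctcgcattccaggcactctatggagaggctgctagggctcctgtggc

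Each of the 3 windows of 250 bases held 4 copies of TGACG or CGTCA, of which 3 are in the stretch printed for Nr4a3. The copies lay 40 to 233 bases before the start in Nr4a1, 111 to 200 in Nr4a2 and 147 to 231 in Nr4a3. Over 32851 RefSeq promoter windows of that length, 17.8% held at least 1 copy, 3.90% at least 2, 0.688% at least 3 and 0.137% at least 4. The whole CRE (TGACGTCA on both strands) was in none of the 3 windows and in 1.55% of all windows. The NBRE, the element that NR4A monomers bind (AAAGGTCA, other strand TGACCTTT), was in none of the 3 and in 1.34% of all windows, and the CArG box bound by serum response factor was in none of the 3 and in 1.47%. GC content of the windows was 74.4% for Nr4a1, 80.0% for Nr4a2 and 63.6% for Nr4a3. A match of letters is a description of the window and not a bound site.

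Section totals ranged from 34983708 UMIs in HF replicate 1 to 90098381 in MF replicate 1, and median UMIs per spot from 9286 to 23543.5, over 3197 to 3598 kept spots. HF replicate 2 stood apart in genes of the hypothalamus that mark how far back a coronal plane lies: the Pmch level was 688, 497, 321 and 0.71 CPM (the UMIs of a gene scaled to the total of the section or area) in MF replicate 1, MF replicate 2, HF replicate 1 and HF replicate 2, which is the order of all section values here. The Oxt level was 638 CPM in HF replicate 2 and at most 4.10 CPM in the others. Spots were clustered on genes other than the family and the early genes related to it, and clusters were named from marker genes as white matter (WM), striatum (STR), cortex (CTX), thalamus (TH), ventricle and habenula (VS), hippocampus (HP) and hypothalamus (HY). Within CTX the sub-areas were L2-3, L4, L5, L6 and L6b, and within HP they were CA1, CA2-3 and DG. A cluster that met no naming rule is called by its leading genes. Because a spot mixes cells, fewer cells that express a gene and less of its RNA per cell cannot be told apart.

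The whole sections held 3481, 1502, 2365 and 2368 UMIs of Nr4a1, 2455, 922, 967 and 1695 of Nr4a2, and 3284, 1660, 2172 and 2622 of Nr4a3. Among the 13 named areas each receptor had its own area of highest level, the same in all 4 sections. This was CA1 for Nr4a1, L6b for Nr4a2 and CA2-3 for Nr4a3. The cortical cluster led by Gm45623, which met no naming rule, exceeded L6b for Nr4a2 in MF replicate 1 and HF replicate 1. Numbers of probe pairs per gene are not in the sources used here, so no level of one receptor is set against that of another.

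**Figure D1:**
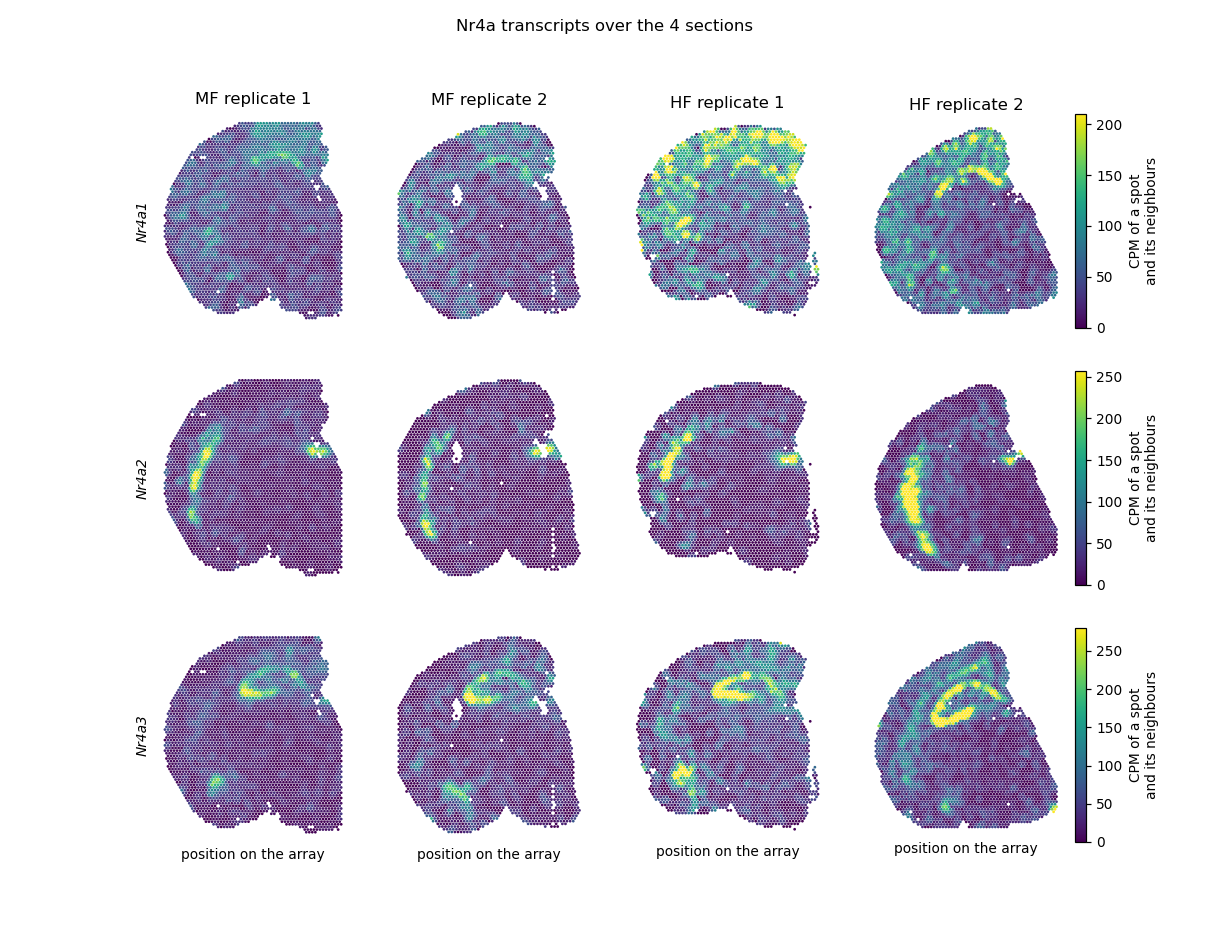
Maps of the kept spots of the 4 sections (columns) for Nr4a1, Nr4a2 and Nr4a3 (rows), coloured by CPM of each spot with its neighbours up to the top of each row's scale, with position on the array on both axes. Nr4a3 is bright along CA2-3 and CA1 and in a patch low in the section, Nr4a2 in a band deep in the lateral cortex and near the midline, and Nr4a1 in CA1 and over much of the cortex, most in the HF sections.

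Nr4a1 was highest in CA1, with 146, 147, 197 and 228 CPM (mean 179 ± 40.3, SD, n = 4). All 4 sections had more Nr4a1 in CA1 than in L2-3, the next area in the order (51.7, 63.7, 149 and 96.8 CPM), by 1.07 ± 0.46 on the log2 scale. Below CA1 the means fell in small steps through L2-3 (90.2), L5 (85.8), L6 (77.3), L4 (74.4), STR (74.0), L6b (62.9), CA2-3 (45.6), WM (39.0) and DG (34.1) to TH (28.3), HY (28.3) and VS (27.6), a range of 6.50-fold from the highest area to the lowest. Of the 12 pairs of neighbours in this order, 9 did not differ beyond their spread over the sections, and the pairs that did were CA1 over L2-3, STR over L6b and CA2-3 over WM. The spread includes both diets, since each SD is over all 4 sections.

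Between the 7 regions Nr4a1 differed with adjusted p = 8.51e-18 (quasi-likelihood F-test of edgeR with section as a block, adjusted over all features). Against the mean of the other regions it was higher in CTX (log2 difference 1.02 ± 0.07, SE), HP (0.85 ± 0.09) and STR (0.77 ± 0.11) and lower in TH (−0.72 ± 0.09), VS (−0.87 ± 0.13) and HY (−0.90 ± 0.09). That test called 91.7% of all features, so a difference between regions is the usual case. Within the hippocampus, where 53.7% were called, Nr4a1 separated the fields (adjusted p = 5.76e-29, edgeR), at 2.25 ± 0.12 above the mean of the others in CA1 and 1.68 below it in DG (−1.68 ± 0.17). Its layers in the cortex were far more even: the largest departures there were −0.52 ± 0.15 in L6b (−0.23 at resolution 0.5) and 0.23 ± 0.09 in L5. This cortical difference had adjusted p = 0.00272 (edgeR, 45.9% of features called), but 0.0786 with spots thinned to 5000 UMIs and 0.0874 with coarser clusters at resolution 0.5.

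Nr4a2 was the most local of the family within the cortex. L6b, the thin layer of subplate-derived neurons on the white matter, had 151, 162, 172 and 244 CPM (183 ± 42.1, n = 4). VS followed with 90.2, 98.0, 113 and 86.7 CPM (97.0 ± 11.7), and L6 with 103 CPM in HF replicate 2 and at most 38.9 CPM in the others (52.1 ± 33.9). L6b exceeded VS in 4 of 4 sections by 0.89 ± 0.40 on the log2 scale and VS exceeded L6 in 3 of 4, the exception being HF replicate 2. The other 10 of 12 neighbouring pairs did not differ beyond their spread, from CA1 (39.5) and STR (28.7) through CA2-3 (24.0), L5 (22.5), WM (22.5), DG (20.2) and L4 (15.2) to TH (11.3), HY (10.6) and L2-3 (9.41). The highest area was 19.4-fold above the lowest, and both are in the cortex.

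Over the cortical layers the Nr4a2 difference from the mean of the others rose with depth, from −1.94 ± 0.17 in L2-3 through −1.26 ± 0.15 in L4 and −0.69 ± 0.15 in L5 to 0.72 ± 0.13 in L6 and 3.18 ± 0.12 in L6b (adjusted p = 9.54e-39, edgeR). At resolution 0.5 L6 and L6b came out nearly level, at 1.99 ± 0.07 and 2.08 ± 0.10. Between regions it was higher in VS (2.07 ± 0.12) and CTX (1.14 ± 0.09) and lower in TH (−1.34 ± 0.12) and HY (−1.73 ± 0.13), with adjusted p = 1.23e-19. Between hippocampal fields it was higher in CA1 (0.84 ± 0.19) and lower in DG (−0.72 ± 0.22), with adjusted p = 0.000285 by edgeR. That result rests on 61 to 194 UMIs of Nr4a2 per section in all of HP, and after thinning too few were left to be tested.

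Nr4a2 was also high in 2 clusters. In the VS cluster led by Gm5741, Gpr151 and Pou4f1, the last being a transcription factor of habenular neurons, Nr4a2 was at 113, 127, 143 and 156 CPM over 231 spots (135 ± 18.9, n = 4). In the VS cluster led by Ttr, Ecrg4 and Folr1, genes of the choroid plexus, it was at 23.3, 4.1, 10.1 and 23.9 CPM over 46 spots, below the habenular cluster in every section. In a cortical cluster that met no naming rule, led by Gm45623, B3gat2, Oprk1, Synpr and Gnb4, Nr4a2 was at 155, 96.9, 185 and 203 CPM over 485 spots. That level was above L6b in MF replicate 1 and HF replicate 1 and below it in MF replicate 2 and HF replicate 2. Of the 100 spots per section with the highest Nr4a2 in a spot and its neighbours, this cluster held 45, 29, 50 and 55, L6b held 24, 20, 8 and 15, and the Gpr151 cluster held 21, 23, 25 and 6.

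Nr4a3 was highest in the hippocampus. CA2-3, the pyramidal cells between CA1 and the dentate gyrus, had 252, 311, 390 and 423 CPM (344 ± 77.1, n = 4), and CA1 had 167, 200, 263 and 307 CPM (234 ± 62.7). CA2-3 exceeded CA1 by 0.56 ± 0.08 on the log2 scale and CA1 exceeded L6, the next area, by 1.53 ± 0.11, both in all sections. DG, the granule cells of the same structure, had 35.0, 51.9, 84.2 and 55.5 CPM and ranked behind L6 (80.9) and L5 (61.1). A hippocampal cluster that met no naming rule, led by Igfbpl1, Sox11 and Sema3c (57 spots), had 78.7, 67.7, 85.1 and 85.5 CPM. After DG (56.7) came VS (53.0), L6b (52.1), STR (38.4), L2-3 (36.0), L4 (34.1), WM (27.7), TH (24.1) and HY (23.9), a range of 14.4-fold in all, in which 8 of 12 neighbouring pairs did not differ beyond their spread.

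The regional test of Nr4a3 gave 2.42 ± 0.09 for HP against the mean of the others and −0.98 ± 0.11 for TH and −1.17 ± 0.11 for HY (adjusted p = 1.21e-21, edgeR). Between hippocampal fields CA2-3 was at 1.72 ± 0.08, CA1 at 0.80 ± 0.09 and DG at −2.52 ± 0.11 (adjusted p = 1.12e-36). At resolution 0.5, where a cluster led by Igfbpl1 was named DG, DG was at −2.02 ± 0.08. In the cortex Nr4a3 was higher in L6 (0.94 ± 0.10) and L5 (0.41 ± 0.10) and lower in L2-3 (−0.51 ± 0.11) and L4 (−0.74 ± 0.11), and L6b did not share the high level of L6 (−0.09 ± 0.16, adjusted p = 1.49e-16 for all layers). The L6b value was −0.69 with thinned spots and 0.12 at resolution 0.5, and that of L5 was 0.67 with thinned spots. Spots were ranked in each section by Nr4a3 in a spot and its neighbours. Among the 100 highest were 33 of 35, 21 of 21, 26 of 26 and 31 of 32 spots of CA2-3. A cluster low in the section led by Lypd1, Cyp26b1 and Lmo3 held 15 and 22 of these 100 in the MF sections, 20 in HF replicate 1 and none in HF replicate 2. A cluster led by Thbs4, Cabp7 and Gm2115 held 26, 29, 27 and 31, and CA1 held 17, 14, 10 and 26.

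**Figure D2:**
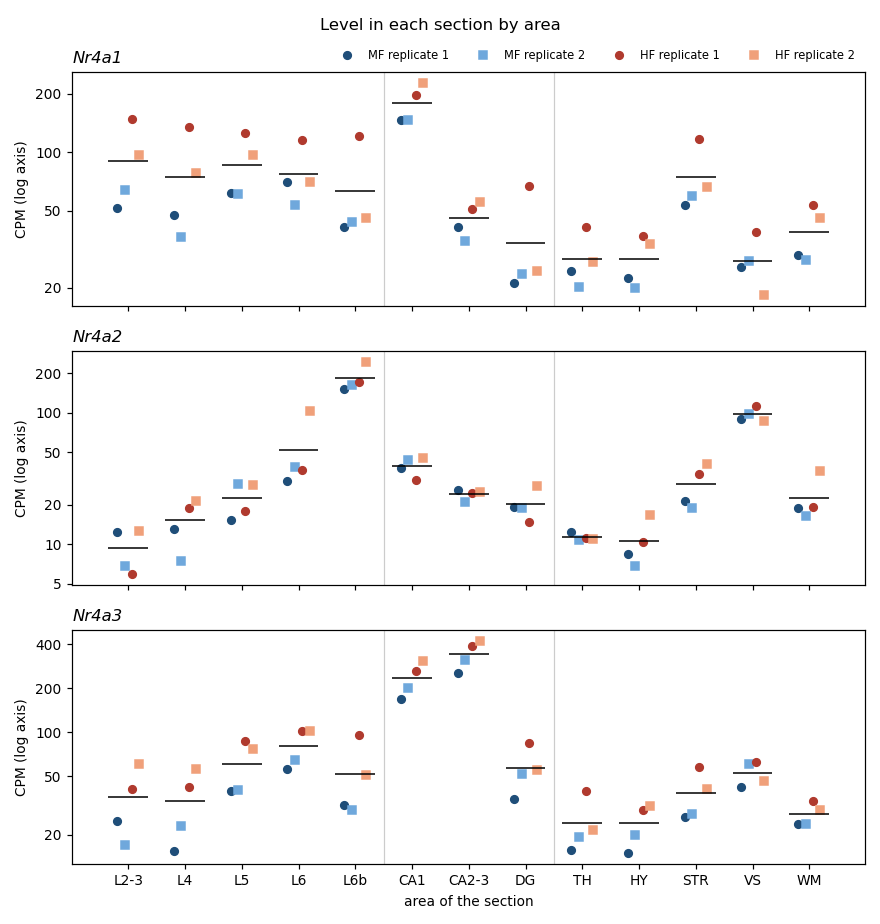
CPM of Nr4a1, Nr4a2 and Nr4a3 (panels, log axis) in 13 areas, grouped as cortical layers, hippocampal fields and other regions, with 1 point per section and a bar at the mean of the 4 sections. CA1 is highest for Nr4a1, L6b for Nr4a2 and CA2-3 for Nr4a3 in every section, while most neighbouring areas below them overlap.

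The order of the areas differed between the receptors. Pearson's r of log2(CPM + 1) over the 13 area means was 0.10 between Nr4a1 and Nr4a2, 0.44 between Nr4a1 and Nr4a3 and 0.32 between Nr4a2 and Nr4a3, as a description, since the areas share libraries. Among 11615 features with at least 10 CPM in some area, those most like Nr4a1 were Prkcb (r = 0.94), Egr1 (0.93), Extl1 (0.92), Git1 (0.91) and Plcl2 (0.91). Among those most like Nr4a2 were Rai14 (0.84), Vegfd (0.83), Bri3 (0.80) and Slc50a1 (0.78). Those most like Nr4a3 were Sebox (0.96), Neurod6 (0.92), Tbata (0.90), Klk8 (0.88) and Wasl (0.88).

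Moran's I, a deposited score that is near 0 for a feature scattered over the section and rises as neighbouring spots become alike, does not depend on the clusters. It was 0.304, 0.219, 0.213 and 0.352 for Nr4a2, above 97.1%, 96.8%, 96.8% and 98.9% of the features with a value. For Nr4a3 it ran from 0.199 in HF replicate 1 to 0.289 in MF replicate 1. For Nr4a1 it was 0.142, 0.0624, 0.144 and 0.121, below both other receptors in every section. The score also moves with depth and level, and MF replicate 1 is the deepest section.

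In HF against MF, Nr4a1 and Nr4a3 were higher over most of the section and Nr4a2 in fewer areas. These are the values on which the family was selected, so nothing is read from them beyond their size. Over the whole section Nr4a1 was at 38.6, 35.4, 67.6 and 55.7 CPM (log2 HF/MF 0.72 ± 0.11, SE, n = 2 sections per diet). Nr4a3 was at 36.4, 39.1, 62.1 and 61.7 CPM (0.70 ± 0.08), and for both receptors the HF sections lay above the MF sections. Nr4a2 was at 27.2, 21.7, 27.6 and 39.9 CPM (0.45 ± 0.20), and HF replicate 1 exceeded MF replicate 1 by little. Other features were called by edgeR, with the p-value adjusted by Benjamini-Hochberg under 0.05 and a change of at least 1.2-fold; no call is given for the receptors. Over whole sections both HF sections were above both MF sections in 21.8% of the 14971 features tested. Of these features 0% were called higher in HF and none lower, 1020 had an unadjusted p under 0.05, and DESeq2 called 22.

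In CTX Nr4a1 was at 54.4, 53.8, 132 and 86.1 CPM, 1.01 ± 0.14 higher in HF on the log2 scale. Nr4a3 was at 37.2, 36.9, 73.9 and 76.1 CPM (1.03 ± 0.10). Nr4a2 was at 43.9, 37.5, 48.3 and 75.1 CPM (0.62 ± 0.15), with HF replicate 1 close to MF replicate 1. The HF sections were above the MF sections for all 3 receptors, and in 16.1% of the features tested in CTX. Without HF replicate 1 the Nr4a1 difference was 0.69. Without HF replicate 2, which stood apart in hypothalamic genes and whose plane may differ, the differences were 1.29 for Nr4a1, 0.23 for Nr4a2 and 1.01 for Nr4a3.

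In HP Nr4a1 was at 56.0, 60.7, 85.0 and 86.7 CPM (0.58 ± 0.12), and Nr4a3 at 136, 155, 198 and 231 CPM (0.59 ± 0.12), with no overlap between diets. Nr4a2 was at 29.5, 24.1, 24.6 and 27.9 CPM (−0.04 ± 0.19), and the diets overlapped. HF was above MF in 16.1% of the features tested there. Without HF replicate 2 the HP differences were 0.55 for Nr4a1, −0.17 for Nr4a2 and 0.45 for Nr4a3, and with spots thinned to 5000 UMIs that of Nr4a1 was 0.17.

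**Figure D3:**
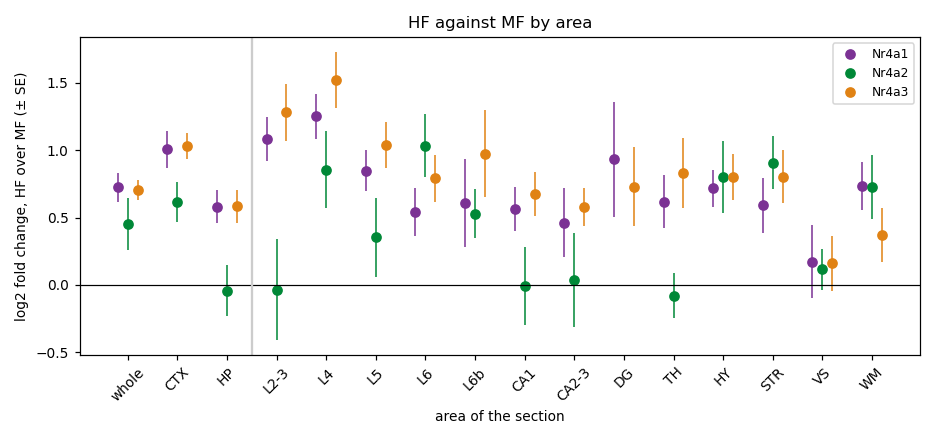
Log2 HF/MF of Nr4a1, Nr4a2 and Nr4a3 in the whole section, regions and sub-areas, with bars of 1 SE from edgeR and n = 2 sections per diet. Nr4a1 and Nr4a3 lie above 0 in all areas shown, from 0.16 for Nr4a3 in VS to 1.52 for Nr4a3 in L4, and Nr4a2 lies on both sides of 0.

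Within the cortex the differences with the highest values were in L4 and L2-3. In L4, the layer that receives thalamic input, Nr4a3 was at 15.4, 22.8, 42.5 and 55.9 CPM (1.52 ± 0.21), and Nr4a1 at 47.6, 36.4, 135 and 78.3 CPM (1.25 ± 0.17, and 0.83 without HF replicate 1). In L2-3 Nr4a3 was at 24.7, 17.1, 41.4 and 60.7 CPM (1.28 ± 0.21), and the log2 difference of Nr4a1 was 1.08 ± 0.16. Of the Nr4a1 values, that of HF replicate 1 was the highest in both layers. In L5 the differences were 0.85 ± 0.15 for Nr4a1 (61.5, 60.5, 125 and 96.4 CPM) and 1.04 ± 0.17 for Nr4a3 (39.6, 40.3, 87.3 and 76.9 CPM). The diets did not overlap for either receptor in these layers, where both HF sections were above both MF sections in 16.9% of features in L2-3, 16.5% in L4 and 17.1% in L5.

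In L6, Nr4a3 was at 56.0, 64.9, 101 and 102 CPM (0.79 ± 0.17), where HF was above MF in 15.6% of features. Nr4a2 differed there by 1.03 ± 0.23, although its diets overlapped: HF replicate 1 (37.0 CPM) was below MF replicate 2 (38.9 CPM), and without HF replicate 2 (103 CPM) the difference was 0.21. Nr4a1 in L6 was at 70.0, 53.1, 116 and 70.3 CPM (0.54 ± 0.18). In L6b, the named layer where Nr4a2 is highest, its difference was 0.53 ± 0.18 (0.13 without HF replicate 2), and HF was above MF in 17.5% of features. L6b is small, with 18 spots in HF replicate 1, and Nr4a1 there was at 41.3, 43.4, 121 and 45.6 CPM. In the cortical cluster led by Gm45623, where Nr4a2 is also high, its values run from 96.9 CPM in MF replicate 2 to 203 CPM in HF replicate 2.

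In the hippocampal fields, Nr4a3 in CA2-3 differed by 0.58 ± 0.14, and its HF sections (390 and 423 CPM) were above its MF sections (252 and 311 CPM), where HF was above MF in 16% of features. In CA1 Nr4a1 differed by 0.56 ± 0.16 and Nr4a3 by 0.68 ± 0.16, with HF above MF in 16.5%, while Nr4a2 was at 38.2, 44.0, 30.7 and 45.3 CPM (−0.01 ± 0.29). With spots thinned to 5000 UMIs the CA1 difference of Nr4a1 turned to −0.062. DG had 16 to 29 spots per section, HF was above MF in 16.7% of its features, and Nr4a1 there was at 21.2, 23.6, 66.9 and 24.5 CPM (0.93 ± 0.43, and 0.17 without HF replicate 1).

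In STR, Nr4a2 was at 21.2, 18.9, 34.0 and 40.8 CPM (0.91 ± 0.20), Nr4a3 differed by 0.81 ± 0.20 and Nr4a1 by 0.59 ± 0.20, with HF above MF in 18% of features. In HY, where HF was above MF in 20.6%, the differences were 0.72 ± 0.14 for Nr4a1, 0.80 ± 0.27 for Nr4a2 and 0.80 ± 0.17 for Nr4a3. In TH, also with 20.6%, Nr4a2 was at 12.3, 10.7, 11.2 and 10.9 CPM (−0.08 ± 0.16), with 0.62 ± 0.20 for Nr4a1 and 0.83 ± 0.26 for Nr4a3. One TH cluster held 72 spots in HF replicate 1 and 201 to 320 in the other sections. In WM, with 18.9%, the differences ran from 0.37 ± 0.20 for Nr4a3 to 0.74 ± 0.18 for Nr4a1. In VS, with 18.5%, all 3 receptors overlapped between diets, at 0.12 to 0.17.

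Over the 13 areas, both HF sections were above both MF sections in 12 areas for Nr4a1, 12 for Nr4a3 and 5 for Nr4a2. VS was the exception for Nr4a1 and Nr4a3. In single areas this held for 15.6% (L6) to 20.6% (TH and HY) of features. The share of features for which it held in as many areas was not computed. Some Nr4a1 margins were small. The lower HF and higher MF values were 70.3 and 70.0 CPM in L6, 45.6 and 43.4 in L6b, and 24.5 and 23.6 in DG. The areas come from the same 4 sections and are not independent of each other. Whether the difference of one receptor exceeded that of another, or that of one area exceeded that of another, was not tested.

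The receptors were set beside lists of genes related to them, chosen with the results of these sections known. The median log2 HF/MF of all features tested was 0.00 in CTX and 0.00 in HP. Of 28 activity-dependent genes (the early genes here) tested in CTX, 9 were called higher and none lower, against 0.137% and 0.0987% of all features. Their median was 0.45. Both HF sections were above both MF sections in 18 of them, against 16.1% of all features, and below in 2, against 21.3%. The called members were Egr1, Egr2, Egr4, Fos and Junb, which encode transcription factors, Arc, which encodes a regulator of AMPA receptor endocytosis, the MAP kinase phosphatase genes Dusp1 and Dusp6, and the clock gene Per1. In HP 1 of 25 was called, Egr1, higher, with a median of 0.36, against 0.00842% of all features called higher and 0.00842% lower.

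Egr1 was at 83.6, 97.1, 363 and 633 CPM in CTX (2.49 ± 0.17) and at 54.8, 81.3, 201 and 459 CPM in HP (2.36 ± 0.28). It is both a called early gene and among the features whose order of areas is most like that of Nr4a1. Fos was at 6.55, 5.63, 23.4 and 17.0 CPM in CTX (1.68 ± 0.18), Egr2 at 1.95, 2.45, 8.15 and 5.82 CPM (1.71 ± 0.26) and Arc at 57.2, 50.6, 216 and 89.9 CPM (1.48 ± 0.24). The higher HF section was replicate 2 for Egr1 and replicate 1 for Egr2, Fos and Arc, as for Nr4a1. The count of 9 was 1 without HF replicate 1, 17 without HF replicate 2, 5 without MF replicate 1, 1 with thinned spots and 5 with DESeq2.

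**Figure D4:**
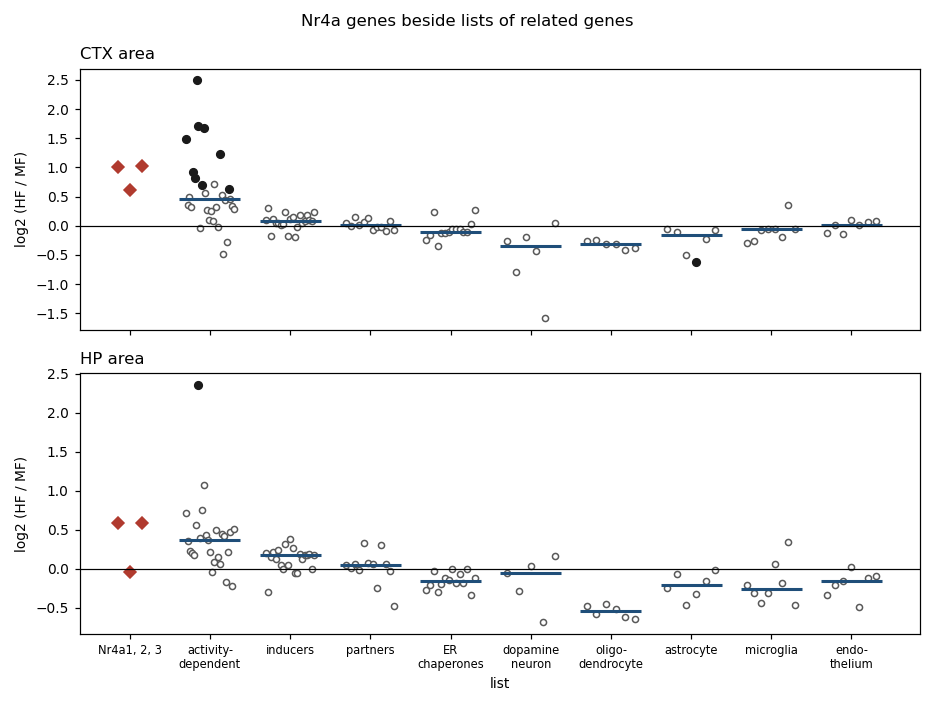
Log2 HF/MF in CTX and HP of the members of each list of related genes, 1 open point per gene or filled where called, with the list median as a bar and 0 as a line; diamonds are the 3 receptors. The early genes spread upward in both regions, to 2.49 for Egr1 in CTX, and the medians of the inducers and partners are at 0.01 to 0.17.

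Genes linked to the family were read in the same fits. In CTX these called 0.137% of all features higher in HF and 0.0987% lower, and in HP 0.00842% each way. No call in a short list is therefore the usual case. None of 21 tested genes for CREB, its coactivators, serum response factor and their kinases was called in CTX or HP (medians 0.09 and 0.17), the largest CTX changes being 0.31 ± 0.10 for Adcy8, an adenylyl cyclase, and 0.24 ± 0.10 for Srf. Adcy8 was at −0.30 ± 0.15 in HP. Of the 21, both HF sections were above both MF sections in 9 in CTX and 8 in HP, against 16.1% of all features in each area. They were below in 2 in CTX and 1 in HP. None of 12 genes for retinoid X receptors, which pair with NR4A1 and NR4A2, and for nuclear receptor coregulators was called (medians 0.01 and 0.05), with Ncoa1 at 0.15 ± 0.10 and Ncor1 at 0.13 ± 0.09 in CTX. In these 12, both HF sections were above both MF sections in 1 in CTX and 2 in HP, and below in 2 in each. Of 12 genes of dopamine neurons, 6 had enough counts to be tested in CTX and none was called (median −0.35). Both HF sections were below both MF sections in 4 of the 6, against 21.3% of all features, and above in 0. Slc18a2, the vesicular monoamine transporter, was at −1.59 ± 0.55 and Ddc, aromatic amino acid decarboxylase, at −0.79 ± 0.28. None of 14 chaperone genes of the endoplasmic reticulum was called (median −0.11 in CTX and −0.16 in HP), with Dnajb11 at −0.34 ± 0.09 and Xbp1 at 0.26 ± 0.10. In these 14, both HF sections were below both MF sections in 4 in CTX and 6 in HP, and above in 1 and 0. The share of all features below in HP was not computed, so nothing is read from the HP counts below in these lists.

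Markers of other cells were read in the same sections, where 0.137% of all features were called higher in HF and 0.0987% lower in CTX. The summed level of the oligodendrocyte markers in CTX was 11344 to 11430 CPM in MF and 8379 to 9581 CPM in HF, all 6 had both HF sections below both MF sections (21.3% of all features), none was called, and Mog was at −0.42 ± 0.09. In HP the sum was 8608 to 11962 CPM in MF and 6070 to 8067 CPM in HF. The summed astrocyte markers in CTX were at 1428 to 1553 CPM in MF and 1288 to 1386 CPM in HF, with Gfap called lower (−0.61), and the summed microglial markers at 410 to 424 CPM and 356 to 399 CPM, with Tmem119 at 0.35 and C1qa at −0.29. Endothelial markers overlapped between diets in CTX, with none of 7 called and a median of 0.02 (Cldn5 −0.12, Itm2a −0.13, and the highest 0.10), and neither of the 2 blood genes was called (Hbb-bs −0.19, Alas2 −0.26). No marker of these lists was at 0 in all sections. Of the plane genes Avp was called higher and Hcrt and Pmch lower in CTX. The part of cell makeup, plane and depth in the Nr4a values was not tested.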

How the data were processed

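Visium-FFPE libraries of 4 coronal brain sections, 2 per diet, were analysed. Per the labels and the study's methods, Space Ranger was run by the authors against mm10, which is GRCm38; the deposited values are raw UMI counts of 19465 features per spot under tissue, without normalization. A deposited table gives Moran's I, a score of how alike neighbouring spots are, which was used as given together with its total counts; its p-values and its signal column were not used here. Section totals of 34983708 to 90098381 UMIs set the precision, and MF replicate 1 is the deepest.

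The study's minimum of 500 UMIs and 250 genes per spot was kept. Spots were clustered on 2000 variable genes, 30 principal components and 20 neighbours (scikit-learn 1.9.0 and Python 3.11.15; leidenalg 0.10.2 with igraph 0.11.9 at resolution 1). The 44 genes kept out were the 3 receptors, the early, plane and blood genes and sex-linked genes. Mitochondrial genes were also kept out. A cluster took the class with most markers among its 50 leading genes, with at least 3, unless another class had more among the leading 10.

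UMIs were summed per section and area and tested in R 4.3.3 by quasi-likelihood with edgeR 4.0.16, TMM and filterByExpr, at a Benjamini-Hochberg adjusted p under 0.05 and, for diet, at least 1.2-fold. Areas were compared with section as a block. CPM are UMIs scaled to the area's total. The members and lists were chosen with earlier results of these data known. Named genes were the receptors, the 5 features most like each over the areas, the called members of each list (at most 4, otherwise the 2 with the largest change in CTX) and the plane genes; Egr4, Junb, Dusp1, Dusp6 and Per1 were named after their values were seen. A few genes that fall under this rule are left unreported. The settings varied were DESeq2 1.42.0, a replicate block, library size alone, no filter on low counts, spots thinned to 5000 UMIs, resolution 0.5, interior spots and leaving out 1 section at a time. The fits were checked on simulated counts. A permutation over 2 sections per diet cannot reach 0.05.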

Additional observations from a re-analysis of the deposited data

How the results depend on the processing

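Each receptor kept its adjusted p under 0.05 between regions and between hippocampal fields wherever it was tested. For HF against MF, on which the receptors were selected, values are given with no call. Leaving out 1 section at a time, the log2 HF/MF ran from 0.69 to 1.29 for Nr4a1, 0.23 to 0.87 for Nr4a2 and 1.01 to 1.05 for Nr4a3 in CTX, and from 0.51 to 0.63, −0.17 to 0.14 and 0.45 to 0.71 in HP. Nr4a1 in CTX was at 1.02 with DESeq2. In HP Nr4a1 was at 0.65 at resolution 0.5, 0.58 without the filter on low counts and 0.58 under the crossed block, and Nr4a3 at 0.64 at resolution 0.5 and 0.59 without the filter. Nr4a2 in CTX was at 0.61 without the filter. Nr4a2 changed sign in HP at resolution 0.5 (0.29) and with thinned spots (0.063), and in L2-3 (0.050) and CA1 (0.11) at resolution 0.5. With a section left out it took both signs in L2-3 (−0.82 to 0.57), L5 (−0.30 to 0.65), CA1 (−0.39 to 0.19), CA2-3 (−0.018 to 0.23), TH (−0.16 to 0.034) and VS (−0.077 to 0.28). Nr4a1 changed sign in CA1 with thinned spots (−0.062) and in VS with a section left out (−0.49 to 0.57), and Nr4a3 in VS with thinned spots (−0.18) and with a section left out (−0.13 to 0.37). The adjusted p of Nr4a1 between cortical layers was 0.0786 with thinned spots and 0.0874 at resolution 0.5, and 0.000352 to 0.0326 with each section left out; causes were not tested.

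The features called ran from 7 to 154 in CTX, 2 to 137 in HP and 0 to 1166 over whole sections with each section left out; the lowest CTX count and the highest HP and whole counts were without HF replicate 1. In CTX 31 were called, against 6 with thinned spots, 16 at resolution 0.5 and 145 without the filter; in HP 2, against 41 at resolution 0.5 and 78 without the filter; over whole sections 0, against 22 with DESeq2 and 5 without the filter. The early genes called ran from 1 to 17 in CTX and 1 to 4 in HP with each section left out, and were 5 with DESeq2 and 1 with thinned spots in CTX and 0 with DESeq2 in HP.

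Deviations of sections with the same replicate number had correlations of −0.165 over whole sections, −0.0066 in CTX and 0.131 in HP. Each sets a single MF difference against a single HF difference, so whether the numbers pair the sections cannot be told. With the replicate block Nr4a2 in CTX was at 0.57 and Nr4a3 in HP at 0.57, and 107 features were called in CTX, 28 in HP and 0 over whole sections. A crossed block, chosen after seeing the data, called 124 in CTX, 44 in HP and 11 over whole sections, with Nr4a2 at 0.61 in CTX and Nr4a3 at 0.58 in HP. Depth limits Nr4a2 most: HP held 61 UMIs in MF replicate 2, and it was not tested in DG.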

Other observations

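Levels in clusters that met no naming rule belong to no comparison of areas. In a cluster led by Thbs4, Cabp7 and Gm2115 (991 spots), Nr4a3 was at 61.5, 62.1, 97.9 and 91.0 CPM (the MF sections first, each diet by replicate number), and it was at 38.8, 52.7, 83.4 and 43.2 CPM in a cluster led by Lypd1, Cyp26b1 and Lmo3 (947 spots). In a cluster led by Dio2, Ndnf and Oaf (617 spots), Nr4a1 was at 29.8, 35.6, 66.5 and 49.5 CPM. In a cortical cluster led by Tshz2, Prph and Htr2c (232 spots), it was at 73.3, 61.7, 176 and 139 CPM.

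Among the 100 spots with the highest Nr4a1 in a spot and its neighbours, CA1 held 30 and 18 in the MF sections and 29 in HF replicate 2, but 5 in HF replicate 1, where L2-3 held 21. The lowest level among these 100 spots was 101, 108, 210 and 164 CPM. The difference between sections was not tested.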
